A study of Mus musculus with 6 samples.

Results

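Retinoid carriers and retinoid-metabolising enzymes were compared between back skin of 3 Get1 +/+ and 3 Get1 -/- mouse embryos at e18.5. Get1 is an earlier name of the transcription factor grainyhead-like 3 (Grhl3), and each array holds RNA of 1 embryo. The 9 genes examined were the carriers Rbp4, Rbp7, Crabp1 and Crabp2, the oxidising enzymes Rdh10, Dhrs9, Aldh1a3 and Aox4, and the retinoic acid hydroxylase Cyp26b1. All probe sets whose only platform symbol is one of these names were taken, which gave 11 probe sets for 8 of the 9 genes, among 45037 non-control probe sets and 18193 genes with a symbol of their own. The signal of Dhrs9 was not analysed here, only its promoter. The strain, the form of the Get1 allele and the sex of the embryos are not given in the sources used here, and the tissue is whole back skin, in which epidermis, hair follicles, dermis, fat, vessels and muscle are measured together.

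Retinoids are carried in blood by Rbp4 bound to retinol, and inside cells by small binding proteins of the Rbp and Crabp families. Retinol is oxidised to retinal by dehydrogenases such as Rdh10 and Dhrs9, retinal is oxidised irreversibly to retinoic acid by Aldh1a enzymes and by aldehyde oxidases, and Cyp26 enzymes clear retinoic acid by hydroxylation. In skin, retinoic acid acts through nuclear receptors on keratinocyte differentiation, sebaceous glands and hair follicles.

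The 9 genes were picked with the genotype difference of these same arrays in view. Their differences are therefore descriptions, given with standard errors (SE) and 95% intervals of the model and without p-values. Values are MAS5 signals, the scaled intensities of the arrays in arbitrary units, and changes are log2 of Get1 -/- over Get1 +/+. Levels of different genes were not ranked, because each probe set has its own response, and a summed signal of a marker list is weighted towards its brightest probe sets. In whole tissue, fewer cells of a type and less RNA per cell cannot be told apart.

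The promoters of the 2 genes of the group with the largest positive and the largest negative difference are shown here, as 250 bases before the RefSeq start in build GRCm38.p6, 5′ to 3′ on the gene's strand. Aox4 lies on the plus strand at chr1:58210147-58210396 and Rbp7 on the minus strand at chr4:149454969-149455218. Capitals mark a match to the grainyhead core.
Aox4: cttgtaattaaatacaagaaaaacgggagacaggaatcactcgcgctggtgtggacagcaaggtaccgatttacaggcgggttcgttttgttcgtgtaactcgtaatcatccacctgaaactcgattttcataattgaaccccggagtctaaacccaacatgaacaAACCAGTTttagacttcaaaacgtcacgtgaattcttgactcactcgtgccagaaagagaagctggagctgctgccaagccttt
Rbp7: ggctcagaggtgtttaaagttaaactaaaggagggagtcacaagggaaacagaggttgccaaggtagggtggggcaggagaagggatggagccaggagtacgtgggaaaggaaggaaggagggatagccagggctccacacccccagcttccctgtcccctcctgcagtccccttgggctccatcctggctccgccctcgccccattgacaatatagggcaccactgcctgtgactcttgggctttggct
The core was searched as AACCNGTT, and as AACNGGTT for the other strand, in windows reaching from 250 bases before to 50 after the start. RefSeq windows were at hand for 6 of the 9 genes (7 windows, 2 of them of Rbp4). Crabp2, Rdh10 and Aldh1a3 had no window and were not searched. The Aox4 window held 1 match, AACCAGTT, beginning 84 bases before the start, and the other 6 windows held 0. The same letters occurred in 2.09% of 32851 mouse windows of this length. The DR5 element, a direct repeat with 5 spacing bases to which retinoic acid receptors bind, was found in 0 of the 7 windows and in 0.0974% of all windows. A match of letters is not evidence of binding, and no match says only that these letters are not in this window.

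The quality of the comparison rests on 6 arrays. The only probe set for Grhl3 read 478, 934 and 670 in Get1 +/+ replicates 1 to 3 and 246, 413 and 380 in Get1 -/- replicates 1 to 3, without overlap. Since the form of the allele is not given, the probe set is a limited check of the genotype labels. All 12 markers of differentiating keratinocytes and all 9 of basal keratinocytes passed the filter on low signal, a mean log2 value at or above the median of all probe sets (a signal of 137). Across 11387 genes tested with limma, 5 passed an adjusted p of 0.05 (0.0439%), 3 higher and 2 lower in Get1 -/- skin, and the median log2 change of all genes was 0.01. Without Get1 +/+ replicate 1 the count was 122, and a fit that blocked on the replicate number gave 44 (0.386%).

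Of the 9 retinoid genes, 7 passed the filter, and Aldh1a3 did not. Among these 7 genes 5 were lower and 2 higher by mean log2 signal, and in 5 the genotypes did not overlap (3 lower and 2 higher in Get1 -/- skin), where 12.0% of all genes tested do not overlap, 6.78% lower and 5.20% higher. In the limma fit across all genes 0 of the 7 passed the adjusted threshold and 5 had an unadjusted p under 0.05, as did 8.18% of all genes. With the replicate block 2 passed, Rbp7 and Aox4, and without Get1 +/+ replicate 1 there were 3, these and Crabp2. Among their 8 probe sets above the filter 0 passed over all probe sets, where 0.0266% of all probe sets did, and 5 had an unadjusted p under 0.05, as did 6.72% of all probe sets. Nothing is read from these counts, because the genes were chosen on this contrast.

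**Figure D1:**
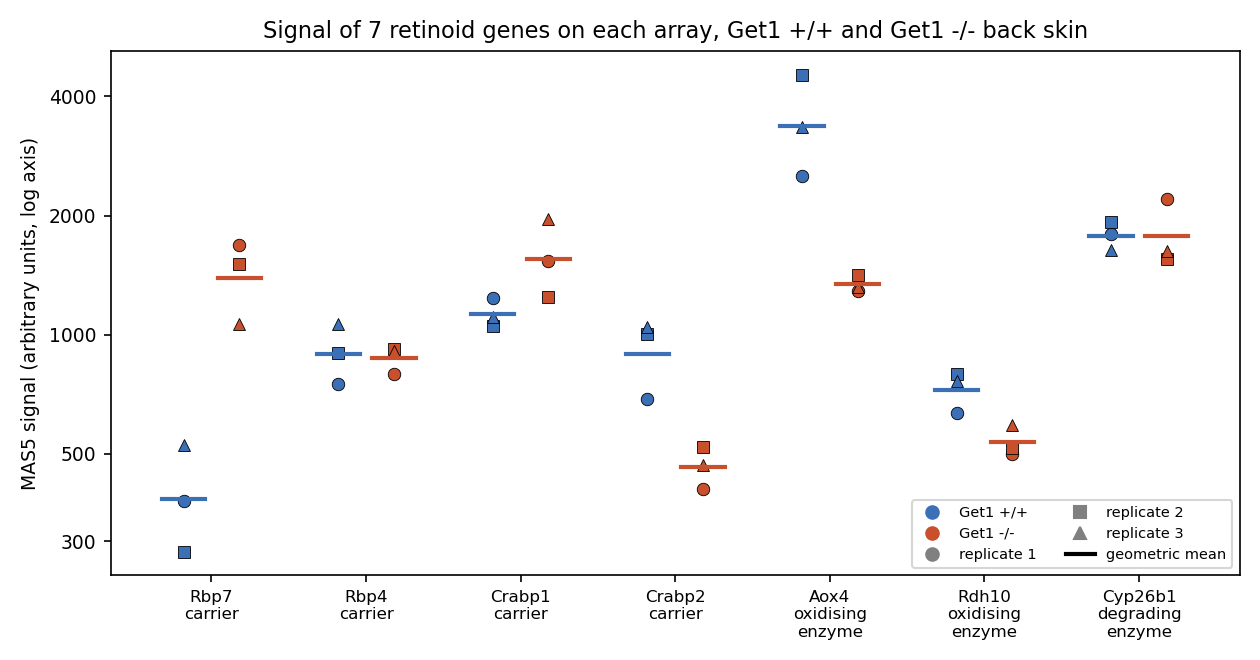
MAS5 signal (arbitrary units, log axis) of the 7 retinoid genes above the filter on each of the 6 arrays, with Get1 +/+ in blue, Get1 -/- in orange, a symbol for each replicate number and a line at the geometric mean of 3 arrays. Rbp7 sits between 283 and 526 in Get1 +/+ and between 1062 and 1688 in Get1 -/- skin, Aox4 between 2520 and 4541 and between 1289 and 1413.

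Among the carriers, Rbp7, an intracellular retinol-binding protein known from adipose tissue and capillary endothelium, was higher in Get1 -/- skin. Its signal was 379, 283 and 526 in Get1 +/+ replicates 1 to 3 and 1688, 1507 and 1062 in Get1 -/- replicates 1 to 3. Every Get1 -/- array lay above every Get1 +/+ array, with Get1 -/- replicate 3 the lowest of its genotype and Get1 +/+ replicate 3 the highest of its own. The means were 396 ± 122 and 1419 ± 322 (SD, n = 3 each), a log2 change of 1.86 ± 0.26 (SE; 95% interval 1.28 to 2.44), or 3.63-fold.

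Markers of adipocytes and endothelium, the cell types named above for Rbp7, were measured on the same arrays. Macrophage and skeletal muscle markers are given after them as other cells of whole skin, and whether these cells express Rbp7 was not tested. Of 10 adipocyte markers above the filter 8 were higher, with a median log2 change of 0.14, and their summed signal ran from 48165 to 62698 in Get1 +/+ and from 52290 to 69470 in Get1 -/- skin. Of 12 endothelial markers 11 were higher, with a median of 0.16 and sums of 9078 to 9998 and 9677 to 12053. No marker in either list passed the adjusted threshold (limma), where 1 adipocyte and 0 endothelial markers had an unadjusted p under 0.05, beside 8.18% of all genes. Genotypes did not overlap in 1 adipocyte and 0 endothelial markers, beside 12.0% of all genes. Macrophage markers, 9 of 10 higher with a median of 0.46, had sums of 12013 to 16228 in Get1 +/+ and 17671 to 20367 in Get1 -/- skin. Genotypes did not overlap in 5 of the 10 macrophage markers, beside 12.0% of all genes. Of these 10 markers 0 passed and 6 had an unadjusted p under 0.05 (limma), beside 8.18% of all genes. Skeletal muscle markers were higher in 10 of 10, with a median of 0.34 and sums of 94204 to 147566 and 114019 to 171659. Genotypes overlapped in each muscle marker. In the limma fit 0 passed and 2 had an unadjusted p under 0.05, beside 8.18% of all genes. The part of these cell types in the Rbp7 difference was not tested.

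Rbp7 and Grhl3 both lie on chromosome 4, with 210 protein-coding genes between them in the RefSeq order. Within 10 protein-coding genes on either side of Rbp7, a window chosen after the values were seen, 16 genes were measured. Their log2 changes ran from -0.60 to 0.70 with a median of -0.14, all smaller in size than that of Rbp7. In the limma fit 0 passed the adjusted threshold, and 1 had an unadjusted p under 0.05, beside 8.18% of all genes. Whether the shared chromosome has a part in the Rbp7 difference was not tested.

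Crabp2, a cellular retinoic acid-binding protein that delivers retinoic acid to its nuclear receptors, was lower in Get1 -/- skin. Its signal was 687, 1001 and 1044 in Get1 +/+ replicates 1 to 3 and 408, 520 and 468 in Get1 -/- replicates 1 to 3. The genotypes did not overlap, and Get1 +/+ replicate 1 was the lowest of its genotype. The means were 911 ± 195 and 465 ± 55.8 (SD, n = 3 each), a log2 change of -0.95 ± 0.20 (SE; 95% interval -1.41 to -0.50), which leaves 0.517 of the Get1 +/+ signal.

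Crabp1, the paralog of Crabp2 known from dermal cells of hair follicles, differed the other way. Its signal was 1239, 1051 and 1106 in Get1 +/+ replicates 1 to 3 and 1533, 1248 and 1964 in Get1 -/- replicates 1 to 3. The genotypes were separated only narrowly, since 1248 in Get1 -/- replicate 2 lay beside 1239 in Get1 +/+ replicate 1. The log2 change was 0.46 ± 0.19 (SE; 95% interval 0.04 to 0.88), and it was 0.29 without Get1 -/- replicate 3, the highest array. Hair follicle and dermal papilla markers were lower in 10 of 11, with a median of -0.27, and dermal fibroblast markers were lower in 5 of 9, with a median of -0.07. None of either list passed or had an unadjusted p under 0.05 (limma), and genotypes overlapped in each marker of both lists. Sums of the follicle list (8808 to 13658 in Get1 +/+, 8510 to 9312 in Get1 -/-) and of the fibroblast list (134948 to 164157 and 136682 to 157483) overlapped too. The follicle list mixes genes of the follicle epithelium with genes of the papilla, so it does not follow the dermal cells alone. The part of these cells in the Crabp1 difference was not tested.

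Rbp4, the plasma retinol carrier, read 750, 896 and 1064 in Get1 +/+ replicates 1 to 3 and 797, 921 and 908 in Get1 -/- replicates 1 to 3. The genotypes overlapped, and the log2 change was -0.03 ± 0.17 (SE; 95% interval -0.42 to 0.36). The interval leaves room for a change of about that size in either direction, so it does not show that Rbp4 is alike in both genotypes.

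Among the enzymes, Aox4, an aldehyde oxidase that turns retinal into retinoic acid and is known from keratinised epithelia, had the largest negative difference of the 7 genes above the filter. It read 2520, 4541 and 3338 in Get1 +/+ replicates 1 to 3 and 1289, 1413 and 1320 in Get1 -/- replicates 1 to 3. All Get1 -/- arrays lay close together and below all Get1 +/+ arrays, which were spread 1.8-fold from lowest to highest, against 1.1-fold in Get1 -/- skin. The means were 3467 ± 1017 and 1341 ± 64.8 (SD, n = 3 each), a log2 change of -1.33 ± 0.21 (SE; 95% interval -1.79 to -0.87), or 2.51-fold lower. Its promoter window, printed above, holds a match to the letters of the grainyhead core, as do 2.09% of mouse windows. Binding was not tested.

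The other aldehyde oxidase genes lie beside Aox4 on chromosome 1. Aox1 changed by 0.13 ± 0.31 (SE; limma adjusted p = 0.942), with signals of 157 ± 44.0 and 170 ± 42.5 (SD, n = 3 each). Aox3 stayed under the filter, with signals from 20.0 to 44.7 in Get1 +/+ and from 5.35 to 57.2 in Get1 -/- skin, and Aox2 was not analysed here. Over the 15 measured genes within 10 protein-coding genes on either side of Aox4, a window also chosen after the values were seen, changes ran from -0.33 to 0.57 with a median of 0.11.

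Rdh10, which makes retinal from retinol, was represented by a pair of probe sets that disagree. The brighter one read 633, 794 and 762 in Get1 +/+ replicates 1 to 3 and 498, 518 and 590 in Get1 -/- replicates 1 to 3, without overlap, a log2 change of -0.44 ± 0.17 (SE; 95% interval -0.82 to -0.07). The other read 249, 341 and 208 in Get1 +/+ and 289, 229 and 242 in Get1 -/- skin, with overlap and a change of -0.05 ± 0.25 (SE). Averaging both gave -0.25.

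Aldh1a3, a retinal dehydrogenase, lay under the filter with all 3 of its probe sets, whose signals ran from 7.2 to 108, from 17.0 to 33.8 and from 93.2 to 132 over the 6 arrays. The genotypes overlapped in each, and the changes were -0.91 ± 0.90, -0.28 ± 0.60 and -0.16 ± 0.31 (SE), so a difference was not detectable at this signal.

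Cyp26b1, which clears retinoic acid and is known from dermal cells of fetal skin, read 1794, 1924 and 1632 in Get1 +/+ replicates 1 to 3 and 2208, 1554 and 1622 in Get1 -/- replicates 1 to 3. The Get1 -/- arrays held both the highest and the lowest value. The log2 change was -0.01 ± 0.17 (SE; 95% interval -0.39 to 0.38).

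**Figure D2:**
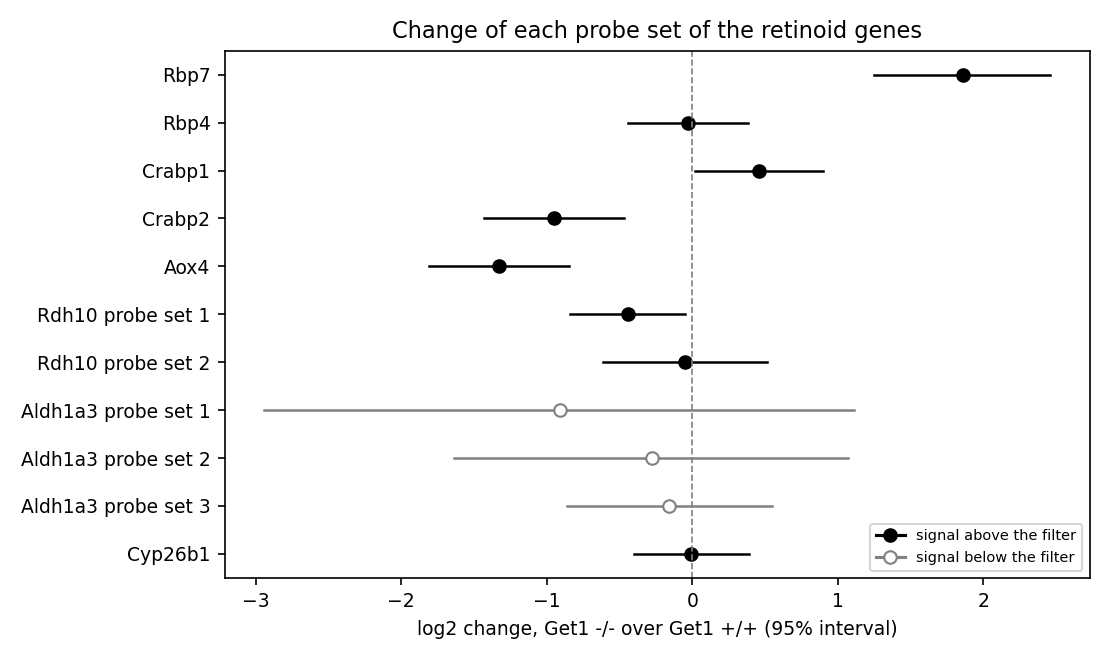
Log2 change of Get1 -/- over Get1 +/+ with its 95% interval for each of the 11 probe sets of the retinoid genes, in the fit of probe sets, filled where the mean signal passed the filter and open where it did not. The intervals of Rbp7 and of Aox4 lie on opposite sides of 0, the Rdh10 probe sets differ (-0.44 and -0.05), and the intervals of the 3 Aldh1a3 probe sets all span 0.

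Beside the lower Aox4 and Crabp2 signals, markers of keratinocyte differentiation were lower too. Of 12 such markers 11 were lower, with a median of -0.47, and their summed signal ran from 181767 to 196562 in Get1 +/+ and from 127221 to 172979 in Get1 -/- skin. Genotypes did not overlap in 5 of the 12, beside 12.0% of all genes. None passed the adjusted threshold (limma), and 4 had an unadjusted p under 0.05, beside 8.18% of all genes. Basal markers were lower in 8 of 9, with a median of -0.12, 0 at an unadjusted p under 0.05, and overlapping sums (63026 to 76222 and 62488 to 64937). Genotypes overlapped in each basal marker. Sebaceous gland markers were higher in 3 of 6 and lower in 3, with a median of -0.18 and sums of 12048 to 22821 and 11059 to 17083. Of these 6 markers 1 had an unadjusted p under 0.05 (limma), beside 8.18% of all genes, and 1 did not overlap between genotypes. The part of these cells in the Aox4 and Crabp2 differences was not tested.

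In several of the named genes the same array was the lowest of its genotype. How many of all genes share this order was not counted. Deviations of the embryos numbered 1 correlated at 0.133 over kept probe sets and at -0.0195 over genes. Replicate 1 of Get1 +/+ had the lowest value of its genotype for Aox4, Crabp2, Rdh10, Rbp4 and Grhl3, and replicate 1 of Get1 -/- had the lowest of its own genotype for the same 5 genes. For Rbp7 the lowest arrays were Get1 +/+ replicate 2 and Get1 -/- replicate 3. Crabp1 was lowest in replicate 2 of both genotypes, and Cyp26b1 in Get1 +/+ replicate 3 and Get1 -/- replicate 2.

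The genes whose log2 values over the 6 arrays correlated most with Rbp7 were Bivm (Pearson r = 0.991), Nkiras1 (0.988) and Cadm1 (0.985), which changed by 0.32 ± 0.18, 0.15 ± 0.14 and 0.33 ± 0.14 (SE). Those nearest to Aox4 were Gtf2ird1 (0.997), Sbds (0.995) and Cobl (0.993), which changed by -0.44 ± 0.14, -0.37 ± 0.14 and -0.98 ± 0.20 (SE). These correlations describe 6 arrays that differ in genotype, they carry no p-value, and r takes no account of the size of a change. At r of 0.95 or more there were 20 genes for Rbp7 and 71 for Aox4.

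Other genes of the retinoid pathway, listed by role, showed no call. Of 62 such genes 39 passed the filter, and of these 18 were higher and 21 lower in Get1 -/- skin, with a median log2 change of -0.02 against 0.01 for all genes. In the limma fit 0 of 39 passed the adjusted threshold (0.0439% of all genes did), and 8 had an unadjusted p under 0.05, beside 8.18% of all genes. Genotypes did not overlap in 5 of the 39, beside 12.0% of all genes.

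Enzymes that convert retinol and retinal into each other were mostly lower by mean. Of 14 measured members 11 were lower and 3 higher, with a median of -0.31, where 48.7% of all genes were lower. In the limma fit 0 passed over all genes, and 5 had an unadjusted p under 0.05, all lower, beside 8.18% of all genes. Genotypes did not overlap in 1 of the 14, beside 12.0% of all genes. Rdh12, a retinal reductase, read 1004, 1556 and 1308 in Get1 +/+ replicates 1 to 3 and 453, 882 and 566 in Get1 -/- replicates 1 to 3. The genotypes did not overlap, and the change was -1.06 ± 0.26 (SE; limma adjusted p = 0.398). Its other probe set read 391, 961 and 832 against 188, 381 and 226, without overlap although 381 lay just under 391, and changed by -1.42 ± 0.38 (SE; adjusted p = 0.697 over all probe sets).

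Rdh9, a retinol dehydrogenase whose probe set is of a type that can match close family members, read 1411, 2788 and 2427 in Get1 +/+ replicates 1 to 3 and 897, 1665 and 899 in Get1 -/- replicates 1 to 3. The genotypes overlapped through Get1 -/- replicate 2, and the change was -0.94 ± 0.31 (SE; limma adjusted p = 0.567). The remaining genes at an unadjusted p under 0.05, named after their values were seen, were the retinol dehydrogenase gene Sdr16c5 (-1.02 ± 0.36), the alcohol dehydrogenase gene Adh1 (-0.77 ± 0.28) and Rdh11, another retinal reductase (-0.53 ± 0.23, SE). Without Get1 +/+ replicate 2 Adh1 changed by -0.44 and Rdh11 by -0.33. A further Rdh11 probe set above the filter changed by -0.28 ± 0.28 (SE), and the mean of the Rdh11 probe sets by -0.40. Genotypes overlapped in Sdr16c5, Adh1 and Rdh11, and the summed signal of the 14 genes, 18211 to 28062 in Get1 +/+ and 15277 to 18385 in Get1 -/- skin, overlapped as well.

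Genes of uptake, storage and other carriers were measured in 4 of 14 cases, 3 higher and 1 lower, with a median of 0.14. Rbp2, an intracellular retinol carrier known from intestine, read 1079, 1110 and 1201 in Get1 +/+ replicates 1 to 3 and 831, 1070 and 597 in Get1 -/- replicates 1 to 3. The genotypes were separated only by the gap from 1070 to 1079, and the change was -0.48 ± 0.21 (SE; limma adjusted p = 0.608), or -0.26 without Get1 -/- replicate 3. Fabp5, the epidermal fatty acid-binding protein that can also bind retinoic acid, changed by 0.10 ± 0.09 (SE; adjusted p = 0.807). The retinol receptor gene Stra6 was among 8 genes under the filter.

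Genes of retinal oxidation and retinoic acid breakdown were measured in 4 of 10 cases, 3 higher and 1 lower, with a median of 0.12, and 0 had an unadjusted p under 0.05. The retinal dehydrogenases Aldh1a2 (0.31 ± 0.35, SE; limma adjusted p = 0.856) and Aldh1a1 (0.11 ± 0.22; 0.931) had the smallest p, and in both the genotypes overlapped. The direction rested on single arrays, since Aldh1a2 changed by -0.04 without Get1 +/+ replicate 2, Aldh1a1 by 0.00 without Get1 +/+ replicate 1, and Aox1 by -0.13 without Get1 +/+ replicate 3 and -0.06 without Get1 -/- replicate 3. Cyp26a1 stayed under the filter.

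Among nuclear receptors and coregulators 4 of 9 measured genes were higher and 5 lower, with a median of -0.02. None passed or had an unadjusted p under 0.05. The corepressor Nrip1 changed by 0.40 ± 0.20 (SE; limma adjusted p = 0.634) and Ppard, a lipid-activated receptor that partners with Rxr, by -0.38 ± 0.26 (0.749). Nrip1 changed by 0.18 without Get1 +/+ replicate 3 and by 0.20 as the mean of its probe sets. Ppard changed by -0.21 without Get1 +/+ replicate 1 and by -0.11 without Get1 -/- replicate 1. The epidermal retinoic acid receptor gene Rarg changed by -0.14 ± 0.15 (0.854) and its partner Rxra by -0.02 ± 0.15 (0.986, both SE).

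Known target genes of retinoic acid were measured in 10 of 15 cases, 6 higher and 4 lower, with a median of 0.20, and 5 of the 15 also stand in another pathway list. The retinoid genes described above, among them Crabp2 and Cyp26b1, are not in this list and not in these counts. None passed, and 2 had an unadjusted p under 0.05 (limma), beside 8.18% of all genes. Genotypes did not overlap in 2 of the 10, beside 12.0% of all genes. The homeobox gene Meis1 read 467, 365 and 390 in Get1 +/+ replicates 1 to 3 and 543, 624 and 600 in Get1 -/- replicates 1 to 3, without overlap, a change of 0.54 ± 0.17 (SE; limma adjusted p = 0.555). A further Meis1 probe set above the filter overlapped between genotypes (0.42 ± 0.25). Rarres1, a gene named for its response to retinoic acid receptors, changed by -0.69 ± 0.30 with overlap (limma adjusted p = 0.608), and by -0.35 without Get1 +/+ replicate 2. Rarb and Cyp26a1, targets often used as readouts, lay under the filter, with signals of 89.9 to 110 and 7.35 to 55.2 over the 6 arrays.

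**Figure D3:**
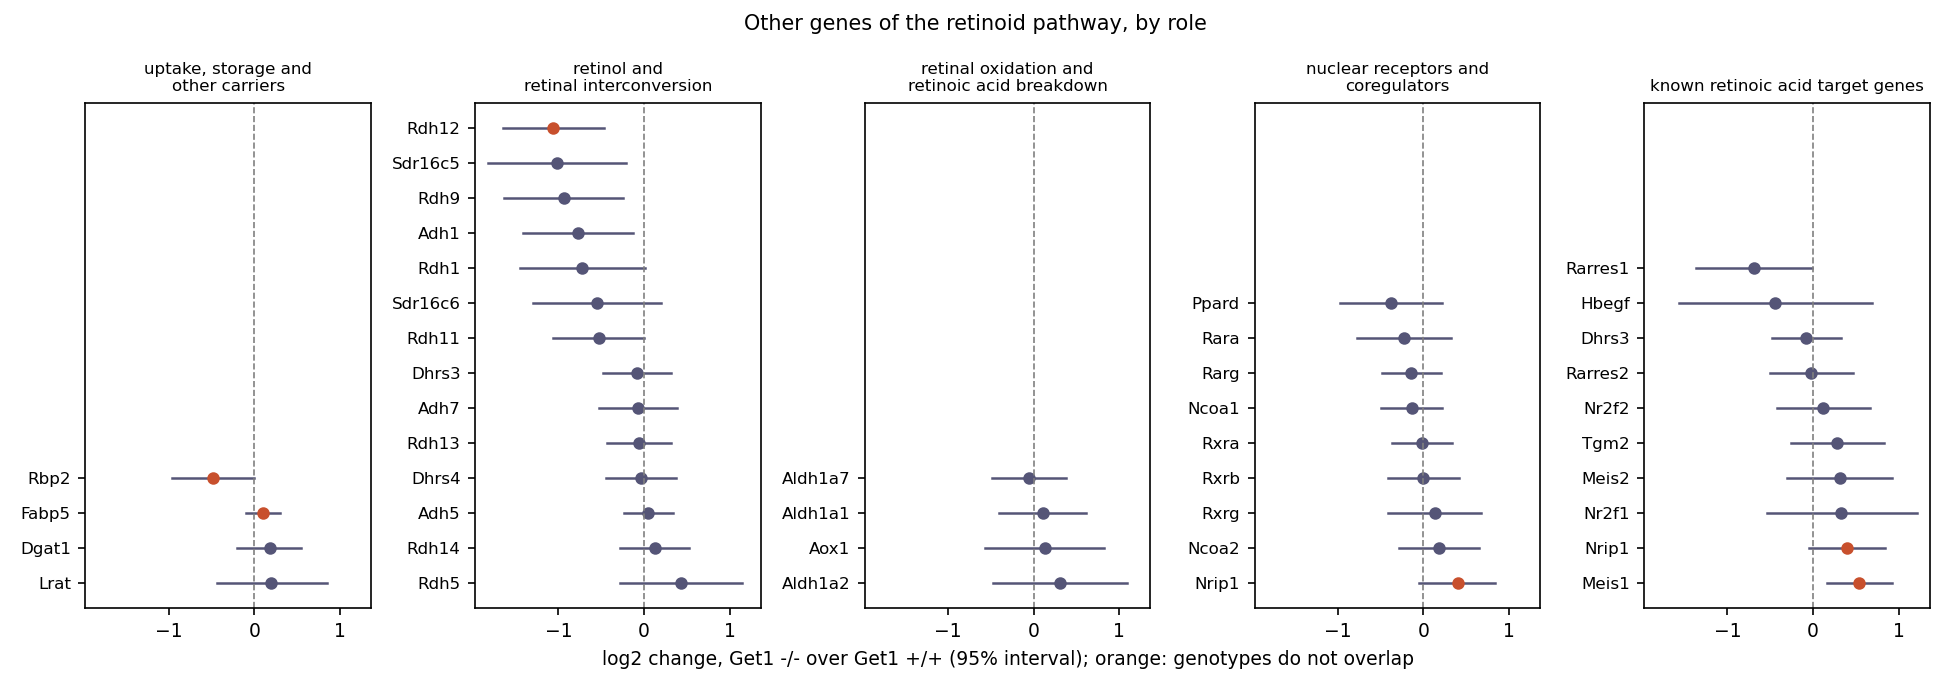
Log2 change of Get1 -/- over Get1 +/+ with its 95% interval for each measured gene of 5 pathway lists, orange where the genotypes do not overlap. The interconversion enzymes reach from -1.06 (Rdh12) to 0.43 (Rdh5), and 11 of 14 lie below 0.

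**Figure D4:**
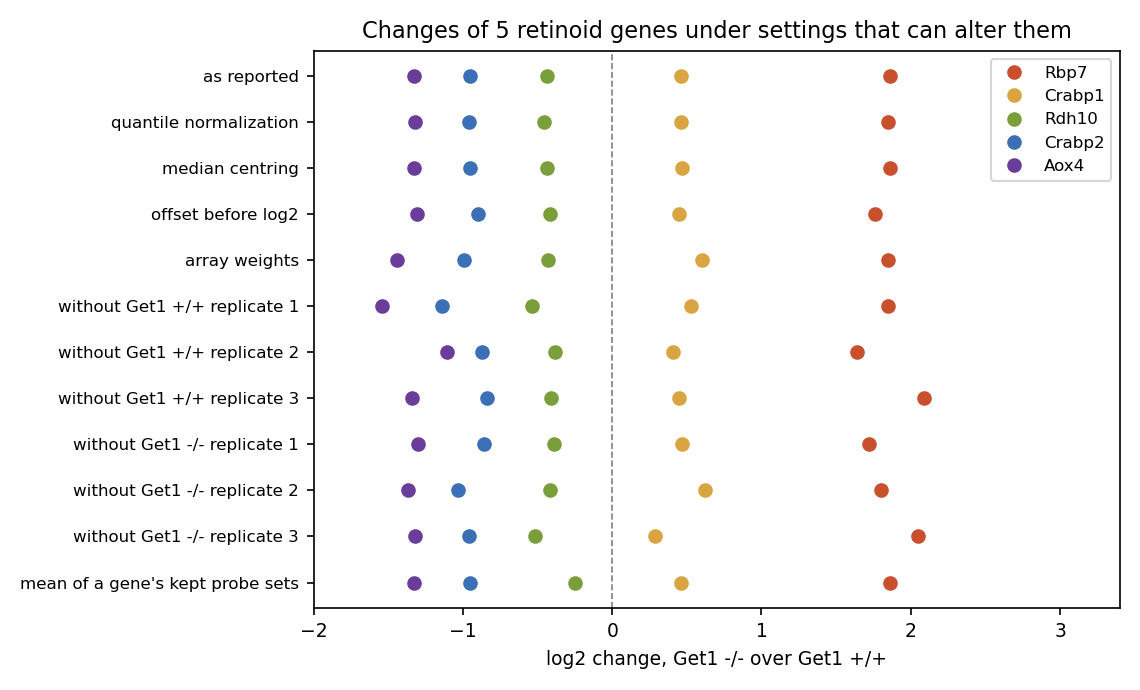
Log2 change of Get1 -/- over Get1 +/+ of the 5 retinoid genes whose genotypes do not overlap, as reported and under the settings that can alter the estimate (rows; the mean of probe sets can alter Rdh10 alone). With an array left out Rbp7 lies between 1.64 and 2.09 and Aox4 between -1.54 and -1.11. A change of sign was not possible there, because the genotypes do not overlap.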

How the data were processed

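Per the labels' protocols, total RNA was copied from its poly(A) ends into cDNA and then into biotin-tagged cRNA, which was hybridised to 1 array per embryo. Each deposited value is a signal intensity on a linear scale, made with MAS5 per the submitters' processing notes, which give no version. Their 2% trimmed mean is 500 on all 6 arrays, so no further scaling was applied, and the table holds no detection calls. After log2, 64 control probe sets were left out, and 22519 of 45037 probe sets at or above the median mean were kept. Symbols come from the platform annotation, which gave 1 symbol to 34945 probe sets, several to 932 and none to 9160. For a gene the brightest kept probe set by mean was used (11387 genes). The test was limma 3.58.1 under R 4.3.3 (lmFit, eBayes with trend, two-sided, Benjamini-Hochberg over all features), checked on simulated data. The number of arrays limits the precision.

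The retinoid genes and all lists were chosen with earlier results of these data known. Named genes were the 9 retinoid genes, Grhl3, the 2 pathway genes per list with the smallest p and any that passed, the 3 genes nearest to each of the 2 most changed retinoid genes, and other Aox genes. Rarg, Rxra, Rdh5 and the genes listed under the filter were named after their values were seen. Embryos carry the numbers 1 to 3 in both genotypes, and no label ties a number to a litter. Deviations of embryos with the same number correlated at 0.133, 0.26 and 0.14 over kept probe sets, but at -0.0195, 0.361 and -0.0251 over genes, so the pairing is uncertain. The unpaired fit was kept, with the replicate block as an alternative. The remaining alternatives were median centring, quantile normalization, a filter at the 70th percentile or none, 37.5 added before log2, array weights, no trend, each array left out and the mean of a gene's probe sets.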

Additional observations from a re-analysis of the deposited data

How the results depend on the processing

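Genes past the threshold numbered 10 with median centring, 8 with array weights and 44 with the replicate block, against 5 as reported, and 4 to 122 with each array left out in turn, the highest without Get1 +/+ replicate 1. Probe sets past it numbered 6 as reported, 13 with median centring, 35 with the replicate block and 4 to 26 with each array left out. Of the 7 retinoid genes, 1 passed with median centring (Rbp7), 1 with array weights (Aox4), 2 with the replicate block and 0 to 3 with an array left out. The other pathway genes had 0 calls in all 15 settings tried. Some came near the threshold, since with the replicate block the limma adjusted p was 0.05, not under it, for Rdh12 and 0.069 for Sdr16c5. Rbp4 (-0.16 to 0.09) and Cyp26b1 (-0.16 to 0.09) turned sign with single arrays left out. With each array left out Rbp7 changed by 1.64 to 2.09, Crabp2 by -1.14 to -0.84 and Aox4 by -1.54 to -1.11. Rdh10 moved by more than the spread between replicates as the mean of its probe sets (-0.25), because its other probe set changed less. The cause of the other moves was not tested. Changes from low signals, such as those of Aldh1a3, are imprecise, and 3 arrays per genotype limit every value.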
